A study of Mus musculus with 8 samples.

Results

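Livers of mice given SLIT2 alone were compared with livers of mice given only the saline vehicle. The comparison takes 4 of the 8 RNA-seq libraries of the study, chosen by their labels, with 2 in the SLIT2 group and 2 in the control group. Of 23006 gene identifiers in the count table, 16876 passed the filter on low counts and were tested. The SLIT2 group received 2 µg of SLIT2 per mouse into the peritoneum over 3 days, without acetaminophen. The control group received phosphate-buffered saline. All mice are labelled wild type and all samples liver, while sex, age, strain and the form of the SLIT2 preparation are not in the labels. The other 4 libraries, from mice given acetaminophen (APAP) with or without SLIT2, entered the model only to estimate the spread between libraries. Whether the 2 libraries of a group are 2 mice or 1 mouse sequenced again is not in the labels, so the p-values cover the variation among these libraries, which could be technical.

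SLIT2 is a secreted glycoprotein first known for repelling growing axons. It binds ROBO receptors, whose cytoplasmic tails recruit adaptors and GTPase-activating proteins that act on small GTPases such as Rac and Cdc42 and so on the actin cytoskeleton. In the liver, ROBO receptors have been described on endothelial and stellate cells. Mitochondria carry a small genome of their own that encodes core subunits of respiratory complexes I, III and IV and of ATP synthase. All other subunits, and every protein that copies, transcribes or translates mitochondrial DNA, are nuclear products imported from the cytosol.

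The mitochondrially encoded genes set the frame for every other value. Their 13 messenger RNAs took 60.2% and 69% of all counts in the SLIT2 libraries and 16% and 17.3% in the control libraries, with 95% Wilson intervals at most 0.0241 points wide that cover counting error only. The group means were 64.6% ± 6.19 in SLIT2 and 16.6% ± 0.901 in control (SD, n = 2 each). The groups did not overlap, but the smallest two-sided exact permutation p that 2 against 2 allows is 0.333. Total counts were 63.3 and 60.8 M in SLIT2 and 95.4 and 100.5 M in control (1 M is 1000000 counts). Outside the 13 genes, 25.1 and 18.9 M remained in SLIT2 and 80.2 and 83.2 M in control.

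The rest of the transcriptome was also spread differently. The 100 genes with most counts outside the 13 held 29.4% and 28.7% of those counts in SLIT2 and 57.3% and 53% in control. After thinning in expectation to the smallest total outside the 13 genes, 15480 and 15567 genes had at least 10 counts in SLIT2, against 12511 and 12614 in control. A flatter distribution thus stood beside the higher mitochondrial share in both SLIT2 libraries.

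**Figure D1:**
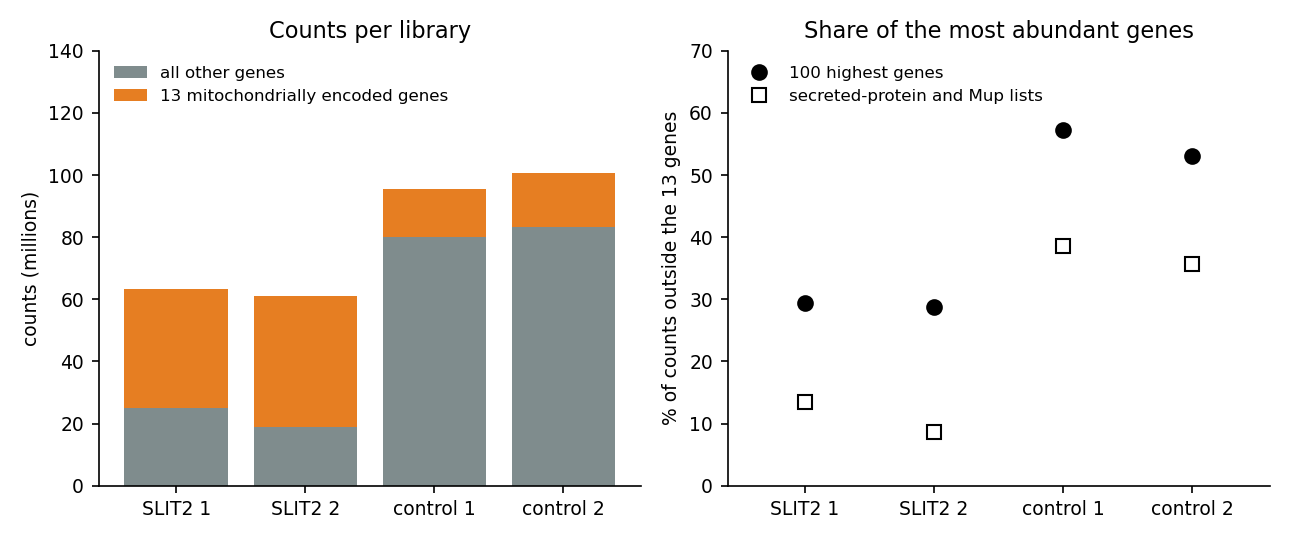
Left, counts per library in M, split into the 13 mitochondrially encoded genes and all other genes. Right, the share of counts outside the 13 genes held by the 100 highest genes and by the lists of secreted liver proteins and major urinary proteins, per library. Outside the 13 genes, 25.1 and 18.9 M counts remained in SLIT2 against 80.2 and 83.2 M in control, and both shares are lower in the SLIT2 libraries.

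Because of this shift, counts of called genes in a list are given on 2 scales, while values of single genes are on the main scale unless the alternative is named. The main scale, TMM, sets library sizes on the assumption that most genes do not change, and its abundances are counts per 1000000 scaled counts (CPM). On the TMM scale edgeR's quasi-likelihood test called 54.9% of the genes tested (9266), with 27.3% higher in SLIT2 (4601) and 27.6% lower (4665). The median log2 fold change was 0, with quartiles of -1.17 and 1.36, so that assumption was not met in these libraries. The alternative scale divides by the totals outside the 13 genes. There the median of 17519 genes tested was 1.42, and 65.2% were called, 56.7% higher (9938) and 8.45% lower (1481). All 4601 rises on the TMM scale were also called higher on that scale, but this is no separate support for them. The change of scale moves nearly every gene upward by a similar amount. Of the 4665 falls, 1481 were called lower on both scales, 3013 were not called on the alternative scale and 164 were called higher there. Between the scales the log2 fold change of a gene moved by a median of 1.36 (5th to 95th percentile 1.32 to 1.38, over 16842 genes tested on both), so a smaller fall changes direction. In bulk tissue, fewer cells of a type and less RNA per cell cannot be told apart.

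The ligand and receptors of the pathway were measured at low levels. Slit2 itself, on chromosome 5, had 87 and 81 counts in SLIT2 and 10 and 9 in control, or 1.28 and 1.47 CPM against 0.119 and 0.0946 CPM. It rose by 3.67 ± 0.49 on the log2 scale (edgeR adjusted p = 0.00057), in both SLIT2 libraries. The form of the injected SLIT2 is not in the labels. The origin of these Slit2 counts was not tested, and they do not check the labels. Robo2 had 1.87 and 2.43 CPM in SLIT2 and 0.751 and 0.725 CPM in control and rose by 1.54 ± 0.35 (edgeR adjusted p = 0.006814). Robo1 had 4.53 and 5.69 CPM in SLIT2 and 2.49 and 2.54 CPM in control and rose by 1.02 ± 0.29 (edgeR adjusted p = 0.01684). These receptors of axons and many other tissues were higher in every SLIT2 library than in any control library. Such a lack of overlap, in either direction, held for 82.6% of all genes tested. Of 5 tested SLIT and ROBO genes 3 were called higher, where 27.3% of all genes were. The longest transcripts of Slit2, Robo2 and Robo1 have 9960, 8591 and 7563 bases. They lie in the range of the longest of 5 bins of protein-coding genes (5200 bases or more), where 36.2% were higher.

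The other members did not pass the test. Robo4, the receptor named for its expression in endothelium, had 7.18 and 6.25 CPM in SLIT2 and 1.92 and 2.74 CPM in control. Its groups did not overlap, like those of 82.6% of all genes tested. The log2 fold change of Robo4 was 1.52 ± 0.70 (edgeR adjusted p = 0.09774). Robo4 was called higher on the alternative scale at 2.87 and with DESeq2 (adjusted p = 0.0342). Robo3 had 0.0885 and 0.453 CPM in SLIT2 and 0.167 and 0.0736 CPM in control, an overlap between groups. Slit1 had 4 and 13 counts in SLIT2 and 6 and 6 in control, and Slit3 had 0 and 1 in SLIT2 and 8 and 6 in control, and neither reached the filter. The Robo1 and Robo2 calls depend on single libraries. Without control 1 the edgeR adjusted p was 0.1128 for Robo1 and 0.0543 for Robo2, without control 2 it was 0.08733 and 0.05201, and without SLIT2 2 it was 0.08161 for Robo1.

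Among 30 tested genes of ROBO signalling, 6 were called higher and 8 lower, near or below the background of 27.3% and 27.6%, and the median log2 fold change was -0.20. The median is 1.16 on the alternative scale, where 17 were called higher and 4 lower, against 1.42 over all genes. Rac1, a small GTPase that drives membrane protrusion, had 18.8 and 15.4 CPM in SLIT2 and 95.8 and 95.9 CPM in control and fell by 2.49 ± 0.23 (edgeR adjusted p = 0.0001393). Its relatives Cdc42 (-2.12 ± 0.25) and Rhoa (-2.25 ± 0.27) fell too, as did Sdc1 (-2.46 ± 0.28), a cell-surface heparan sulfate proteoglycan of hepatocytes. All 4 were also lower on the alternative scale, at -1.13 for Rac1, -0.77 for Cdc42, -0.90 for Rhoa and -1.12 for Sdc1. Leaving out 1 library of these groups left 3 or 4 rises and 5 to 7 falls in this list.

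All 13 mitochondrially encoded genes rose, where 27.3% of all genes did. Log2 fold changes ran from 1.42 (mt-Atp8) to 2.19 (mt-Nd4), with a median of 1.83 on the TMM scale and 3.21 on the alternative scale. The complex IV subunit mt-Co1 had 163000 and 247000 CPM in SLIT2 and 48900 and 53200 CPM in control, a rise of 2.00 ± 0.40 (edgeR adjusted p = 0.003692). The complex I subunit mt-Nd4 had 40100 and 51400 CPM in SLIT2 and 9180 and 10900 CPM in control (2.19 ± 0.35, edgeR adjusted p = 0.001315). The complex III subunit mt-Cytb had 44800 and 63500 CPM in SLIT2 and 15300 and 15500 CPM in control (1.81 ± 0.38, edgeR adjusted p = 0.004856). In none of the 13 genes did the groups overlap, and in 82.6% of all genes tested they did not either.

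The other complex I subunits ranged from 1.75 (mt-Nd1) to 2.18 (mt-Nd2) on the log2 scale, the complex IV subunits mt-Co2 and mt-Co3 stood at 1.72 and 1.66, and the ATP synthase subunits mt-Atp6 and mt-Atp8 at 1.62 and 1.42. The gene mt-Nd6, the only messenger copied from the opposite strand, had 6430 and 8360 CPM in SLIT2 and 2040 and 1900 CPM in control, a rise of 1.91 ± 0.45 (edgeR adjusted p = 0.008414). Because the strand setting of the counting is not given, the mt-Nd6 counts cannot be separated from reads of the opposite strand. They therefore do not show whether transcripts of both strands rose. Without control 1, the calls of 6 of the 13 genes (mt-Nd6, mt-Cytb, mt-Co2, mt-Co3, mt-Atp6 and mt-Atp8) were lost at edgeR adjusted p from 0.05026 to 0.05721, leaving 7, and without control 2 that of mt-Nd6 was lost (0.05183). With offsets for GC content mt-Atp8 stood at 0.54 (edgeR adjusted p = 0.157).

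The values of mt-Atp8 and mt-Atp6 are not separate measurements along their whole length. On the mitochondrial genome (GRCm38) mt-Atp8 runs from 7766 to 7969 and mt-Atp6 from 7927 to 8607, so 43 bases, 21.1% of mt-Atp8, belong to both. The shared stretch is shown because a read inside it cannot be given to either gene. It is in capitals below, after the 10 bases before it, as annotated in GENCODE M21 on the plus strand at chrM:7917-7969.
mt-Atp8 and mt-Atp6: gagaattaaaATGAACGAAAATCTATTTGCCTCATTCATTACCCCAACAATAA

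Nuclear genes for the same respiratory complexes lay on the other side of 0. Of 78 tested nuclear subunit genes, 73 fell, 0 rose and 5 did not pass, against a background of 27.6% lower, and all 78 log2 fold changes were negative (median -2.83). On the alternative scale 60 were called lower and 4 higher, with a median of -1.47 where the median over all genes was 1.42. By complex, 32 of 36 genes of complex I, 4 of 4 of complex II, 10 of 10 of complex III, 12 of 12 of complex IV and 15 of 16 of ATP synthase fell. Their medians on the TMM scale were -2.54, -3.21, -2.78, -3.80 and -3.26. On the alternative scale 25, 3, 8, 11 and 13 of them were called lower.

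Ndufa1, an accessory subunit that complex I needs for assembly, had 4.35 and 2.68 CPM in SLIT2 and 120 and 111 CPM in control. It fell by 5.03 ± 0.31 on the log2 scale (edgeR adjusted p = 9.832e-05). Ndufs5, another complex I subunit, had 8.95 and 6.88 CPM in SLIT2 and 82.5 and 80.1 CPM in control (-3.36 ± 0.22, edgeR adjusted p = 9.832e-05). In complex II, Sdha, the catalytic subunit of succinate dehydrogenase, had 29.2 and 23.5 CPM in SLIT2 and 243 and 235 CPM in control (-3.18 ± 0.25, edgeR adjusted p = 0.0001027). Complex II, which has no mitochondrially encoded subunit, thus fell with the others.

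In complex III, Uqcrh had 24.8 and 31.9 CPM in SLIT2 and 232 and 225 CPM in control (-3.01 ± 0.23, edgeR adjusted p = 0.0001002). In complex IV, Cox6a1, the subunit VIa isoform of liver and most tissues, had 19.8 and 14.2 CPM in SLIT2 and 319 and 355 CPM in control (-4.31 ± 0.32, edgeR adjusted p = 0.0001002). Cox5a had 7.21 and 4.89 CPM in SLIT2 and 167 and 140 CPM in control (-4.66 ± 0.29, edgeR adjusted p = 9.832e-05). In ATP synthase, Atp5g3, a gene for the membrane c-ring subunit, had 21.8 and 14.2 CPM in SLIT2 and 414 and 399 CPM in control (-4.50 ± 0.31, edgeR adjusted p = 9.832e-05). Every library of the SLIT2 group stood below every control library in 75 of the 78 genes. Over all genes tested, the groups did not overlap, in either direction, in 82.6% (13938). Leaving out any 1 of the 4 libraries left 72 to 75 falls.

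**Figure D2:**
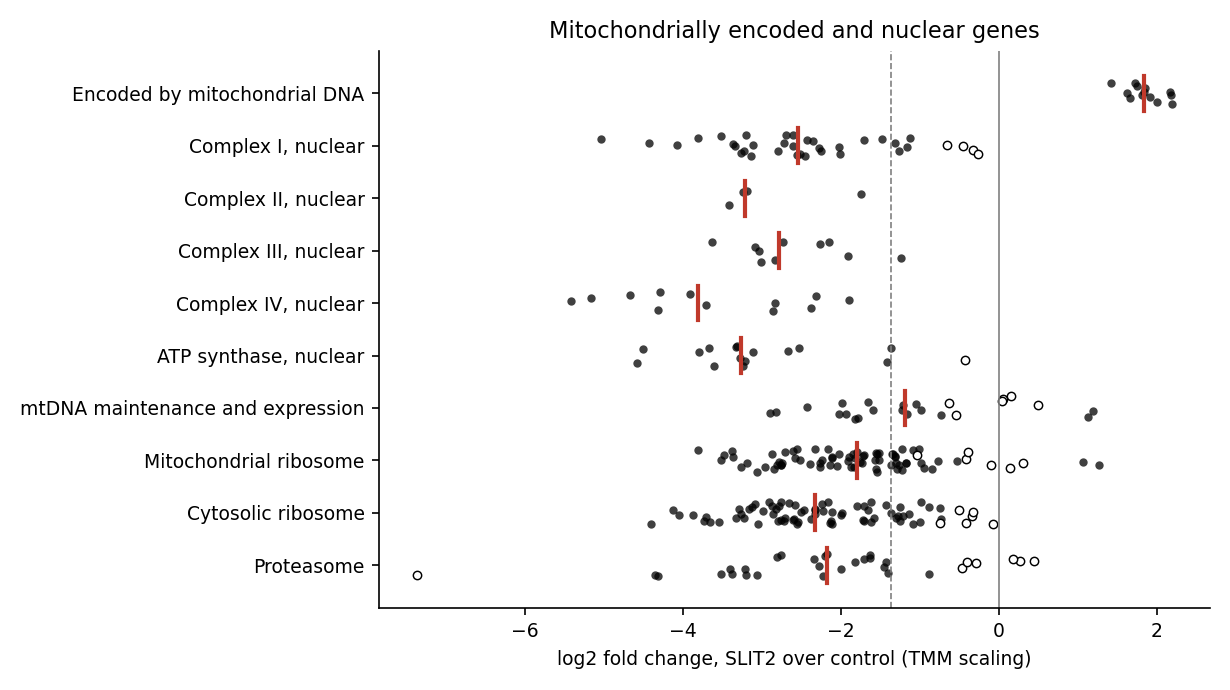
Log2 fold change of SLIT2 over control on the TMM scale (x axis) for each gene of 10 groups, with filled points for called genes, open points for genes that did not pass and a red bar at the group median. The solid line marks 0 and the dashed line -1.36, where 0 lies for the median gene on the scale of totals outside the 13 genes. The 13 mitochondrially encoded genes lie between 1.42 and 2.19, and all 78 nuclear subunit genes lie below 0.

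Nuclear respiratory subunits are known targets of NRF1, a transcription factor whose motif is GCGCA and GCGC with any 1 base between them. That motif, searched on both strands in the 250 bases before and 50 after each RefSeq start site (GRCm38.p6), was present for 17 of the 64 nuclear subunit genes with a promoter in the table (26.6%). It was present for 1195 of 12148 tested genes (9.84%) and for 1402 of 27025 genes in all (5.19%). The ETS motif CCGGAAGT, bound by GABP, was present for 5 of the 64 (7.81%) and for 938 of the 12148 (7.72%). A match describes the sequence and does not show that the factor binds. Among nuclear subunit genes with the motif that were lower on both scales, Cox6a1 was 1 of the 2 with the largest falls. Its promoter is shown, with 2 matches in capitals, at chr5:115348909-115349208 on the minus strand.
Cox6a1: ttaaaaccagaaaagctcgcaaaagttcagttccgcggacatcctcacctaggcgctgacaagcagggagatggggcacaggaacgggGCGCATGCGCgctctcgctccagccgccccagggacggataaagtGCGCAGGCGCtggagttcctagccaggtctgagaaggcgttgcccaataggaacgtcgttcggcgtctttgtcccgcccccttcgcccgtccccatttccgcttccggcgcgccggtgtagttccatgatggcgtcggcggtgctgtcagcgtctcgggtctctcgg

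Genes that maintain and express mitochondrial DNA did not follow the messengers made from it. Of 24 tested, 2 rose, 16 fell and 6 did not pass (median -1.19). On the alternative scale 6 were higher and 4 lower with a median of 0.17, against 1.42 over all genes. Tfam, which packages mitochondrial DNA and starts its transcription, had 7.74 and 6.86 CPM in SLIT2 and 30.9 and 28.5 CPM in control. It fell by 2.02 ± 0.20 (edgeR adjusted p = 0.0001847), and by 0.66 on the alternative scale, where it was also called. Slirp, which stabilises mitochondrial messengers together with Lrpprc, had 17 and 9.83 CPM in SLIT2 and 76.5 and 68.1 CPM in control (-2.43 ± 0.28, edgeR adjusted p = 0.000315). Leaving out SLIT2 2 or either control library left 10 falls in this list.

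Of 12 regulators of mitochondrial biogenesis, 3 were higher and 3 lower, near the background of 27.3% and 27.6%, and 9 were higher and 0 lower on the alternative scale (56.7% and 8.45% of all genes). Ppargc1b, a coactivator that promotes mitochondrial gene expression, had 65 and 56.6 CPM in SLIT2 and 3.21 and 3.71 CPM in control, a rise of 4.14 ± 0.78 (edgeR adjusted p = 0.002894). Its relative Ppargc1a had 16 and 19.1 CPM in SLIT2 and 7.06 and 8.02 CPM in control and also rose (1.22 ± 0.33, edgeR adjusted p = 0.01544). Nrf1 had 8.26 and 10.3 CPM in SLIT2 and 4.64 and 3.93 CPM in control (1.11 ± 0.27, edgeR adjusted p = 0.009333), a call lost without control 2 (0.07005) and without SLIT2 2 (0.0502). Gabpa and Yy1, other activators of nuclear respiratory genes, fell by 1.74 ± 0.24 and 1.81 ± 0.22 on the TMM scale. Neither was called on the alternative scale (-0.38 and -0.45).

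Other abundant housekeeping complexes fell with the nuclear subunits. Abundant genes fell more often in general. In the most abundant of 5 bins of protein-coding genes (mean of 27.5 CPM or more), 55.4% were lower and 13.7% higher on the TMM scale. Of 76 cytosolic ribosomal protein genes, 70 fell (median -2.32), and 47 were lower and 7 higher on the alternative scale. Of 77 mitochondrial ribosomal protein genes, 69 fell and 2 rose (median -1.80), and 31 were lower and 9 higher on the alternative scale. Of 31 proteasome genes, 24 fell (median -2.18), and 14 were lower and 6 higher on the alternative scale. Rps23 had 11.5 and 11.5 CPM in SLIT2 and 203 and 195 CPM in control, a fall of 4.12 ± 0.22 on the log2 scale (edgeR adjusted p = 9.832e-05). Mrpl20 (-3.26 ± 0.21) and the proteasome subunit Psmb1 (-3.2 ± 0.22) fell too (edgeR adjusted p = 9.832e-05 for each). Many ribosomal protein genes have near-identical processed copies, and how reads were shared among copies is not given in the sources used here.

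The products that hepatocytes secrete were lower throughout. All 24 genes of the secreted-protein list fell (median -2.89), and 20 were called lower and 0 higher on the alternative scale. F2, the gene of prothrombin, had 67.4 and 53.6 CPM in SLIT2 and 942 and 994 CPM in control, a fall of 4.00 ± 0.30 (edgeR adjusted p = 0.0001002). Ahsg, the gene of fetuin-A, had 503 and 398 CPM in SLIT2 and 6000 and 5550 CPM in control (-3.68 ± 0.37, edgeR adjusted p = 0.0001766). Rbp4, the plasma carrier of retinol, had 499 and 407 CPM in SLIT2 and 3570 and 3730 CPM in control (-3.01 ± 0.29, edgeR adjusted p = 0.0001589). The major urinary protein (Mup) genes, a cluster of near-identical copies on chromosome 4 that encode pheromone carriers, had 15 of 17 tested members lower and 1 higher, Mup8 (median -4.03), and 14 of 18 lower and 1 higher on the alternative scale. Mup7 had 2990 and 2100 CPM in SLIT2 and 50200 and 36500 CPM in control (-4.09 ± 0.49, edgeR adjusted p = 0.000359). The split between single Mup genes is uncertain, since their reads can fit several copies.

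Together the secreted-protein and Mup lists took 13.4% and 8.7% of the counts outside the 13 mitochondrial genes in SLIT2 and 38.6% and 35.7% in control. Acute-phase genes had 16 of 26 lower and 1 higher, complement genes 18 of 26 lower and 1 higher, and coagulation genes 13 of 19 lower and 0 higher. Over all genes 27.6% were lower and 27.3% higher. In the most abundant of 5 bins of protein-coding genes, 55.4% were lower and 13.7% higher. On the alternative scale 12 acute-phase genes were lower and 4 higher, 11 complement genes lower and 8 higher, and 5 coagulation genes lower and 5 higher. Fga, a fibrinogen chain, had 146 and 89.2 CPM in SLIT2 and 1720 and 1240 CPM in control (-3.66 ± 0.41, edgeR adjusted p = 0.000271). Mbl2, a lectin that starts complement activation, had 22.8 and 20.9 CPM in SLIT2 and 341 and 306 CPM in control (-3.89 ± 0.23, edgeR adjusted p = 9.832e-05). The acute-phase gene that rose was Il6ra, the interleukin-6 receptor, with 70.8 and 81.7 CPM in SLIT2 and 12.3 and 11.1 CPM in control (2.70 ± 0.33, edgeR adjusted p = 0.0003912).

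Metabolic enzymes fell in most lists. Of 25 drug-metabolising P450 genes, 15 fell and 0 rose (median -1.91), with 11 lower and 4 higher on the alternative scale. Cyp2e1, which activates acetaminophen, had 487 and 303 CPM in SLIT2 and 2860 and 3000 CPM in control (-2.89 ± 0.39, edgeR adjusted p = 0.0006227). Cyp3a11 had 194 and 69 CPM in SLIT2 and 2360 and 2320 CPM in control (-4.15 ± 0.58, edgeR adjusted p = 0.0006739). Among the glutathione genes and targets of NRF2, 34 in all, 23 fell and 1 rose, the cystine transporter gene Slc7a11 (median -1.69, 10 lower and 6 higher on the alternative scale). Gpx1, the main cytosolic glutathione peroxidase, had 51.6 and 22 CPM in SLIT2 and 1420 and 1140 CPM in control (-5.12 ± 0.47, edgeR adjusted p = 0.0001374). Slc7a11 had 12.2 and 10.8 CPM in SLIT2 and 1.86 and 1.65 CPM in control (2.71 ± 0.56, edgeR adjusted p = 0.004383).

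Fatty acid oxidation had 25 of 30 genes lower and 1 higher (median -2.25), and 15 were lower and 2 higher on the alternative scale. Ehhadh, the peroxisomal bifunctional enzyme, had 11.7 and 9.8 CPM in SLIT2 and 135 and 166 CPM in control (-3.81 ± 0.37, edgeR adjusted p = 0.0001671). Urea cycle and amino acid genes had 14 of 24 lower and 0 higher, but 6 lower and 6 higher on the alternative scale. Bile acid genes were mixed, with 9 of 21 lower and 3 higher, and 4 lower and 9 higher on the alternative scale. Over all genes 8.45% were lower and 56.7% higher on that scale. The bile acid uptake transporter gene Slc10a1 had 42.7 and 53.4 CPM in SLIT2 and 342 and 349 CPM in control (-2.84 ± 0.37, edgeR adjusted p = 0.0004794).

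Most chaperone and stress genes fell on the TMM scale, but fewer did on the alternative scale. The list for the unfolded protein response and the integrated stress response had 15 of 26 genes lower and 1 higher (median -1.19). On the alternative scale 8 were lower and 8 higher, with a median of 0.16 against 1.42 over all genes. Hspa5, the BiP chaperone of the endoplasmic reticulum, had 59.5 and 48.2 CPM in SLIT2 and 413 and 532 CPM in control (-3.13 ± 0.27, edgeR adjusted p = 0.0001192). Asns, an asparagine synthetase gene switched on by ATF4, had 0.354 and 0.851 CPM in SLIT2 and 22.6 and 13.3 CPM in control (-4.92 ± 0.55, edgeR adjusted p = 0.0002665). Of 18 mitochondrial chaperone and stress genes, 13 fell and 1 rose, and 6 were lower and 2 higher on the alternative scale. Hspd1, the mitochondrial chaperonin, had 54.8 and 36.8 CPM in SLIT2 and 245 and 255 CPM in control (-2.45 ± 0.25, edgeR adjusted p = 0.0001948).

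**Figure D3:**
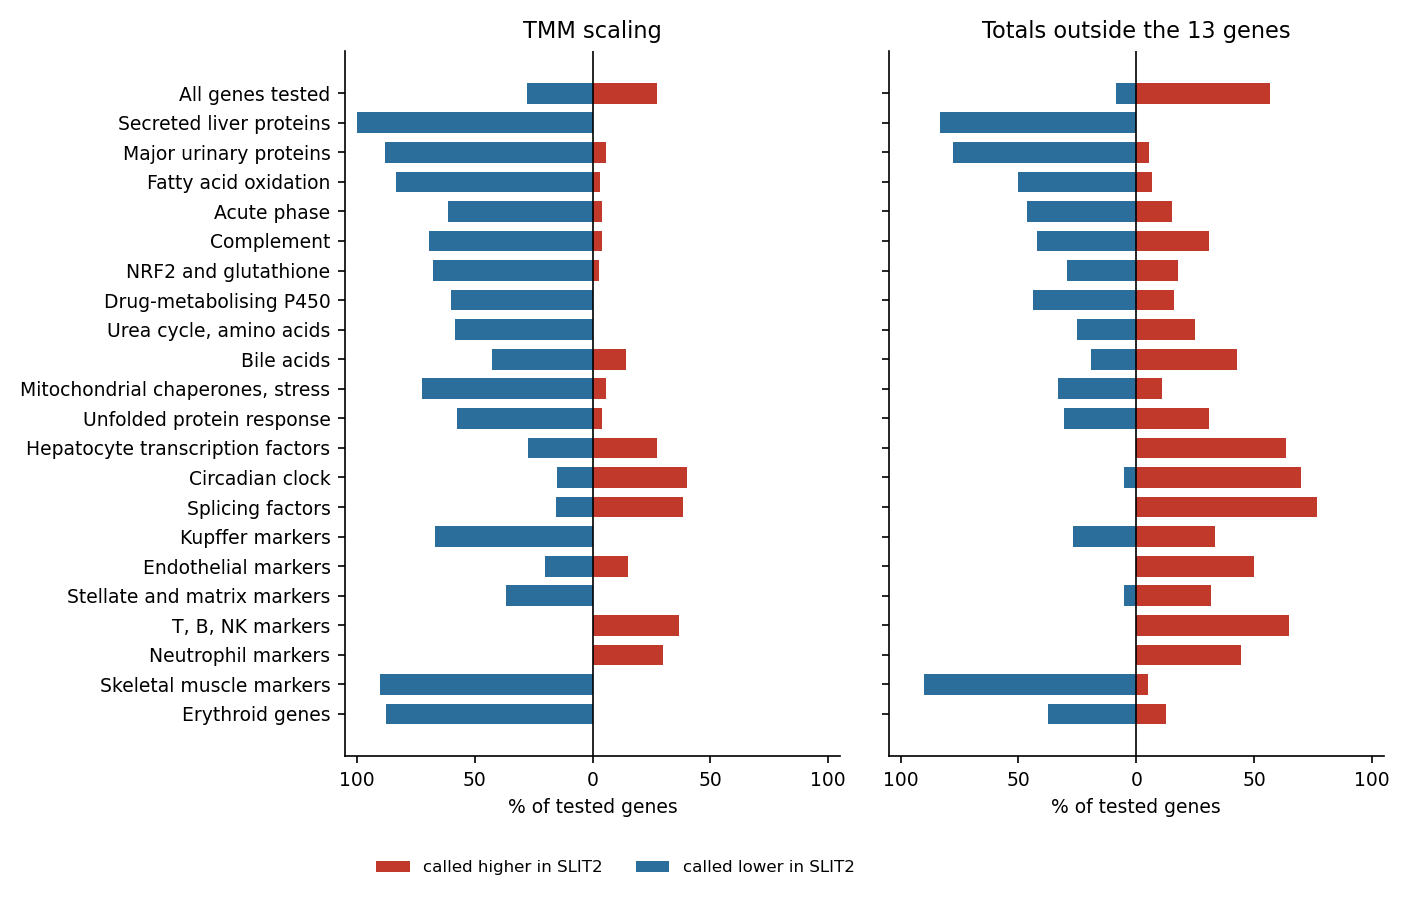
Share of the tested genes of each list called higher (right of 0) and lower (left of 0) in SLIT2, on the TMM scale in the left panel and on the scale of totals outside the 13 genes in the right panel. All genes tested give 27.3% higher and 27.6% lower at left, and 56.7% higher and 8.45% lower at right. The lists of secreted proteins, major urinary proteins and skeletal muscle markers are mostly lower in both panels.

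The transcription factors of hepatocytes were called about as often as all genes. Of 22 tested, 6 rose and 6 fell (median -0.33), against 27.3% and 27.6% of all genes, and on the alternative scale 14 were higher and 0 lower with a median of 1.01, against 1.42 over all genes. Ppara, the receptor that drives fatty acid oxidation genes, had 84.9 and 70.6 CPM in SLIT2 and 23.3 and 23.5 CPM in control, a rise of 1.73 ± 0.29 (edgeR adjusted p = 0.001507). Xbp1, a factor of the secretory pathway, had 70.7 and 56.7 CPM in SLIT2 and 156 and 151 CPM in control (-1.27 ± 0.24, edgeR adjusted p = 0.003064) but stood at 0.09, not called, on the alternative scale. Leaving out 1 of the 4 libraries left 1 to 5 rises and 2 to 5 falls in this list. Among 22 lipogenesis genes 4 rose and 5 fell, both at shares below the background of 27.3% and 27.6%. On the alternative scale 12 were higher and 3 lower, where 56.7% and 8.45% of all genes were. Mlxipl, the carbohydrate-responsive factor ChREBP, had 384 and 561 CPM in SLIT2 and 85.1 and 112 CPM in control (2.26 ± 0.30, edgeR adjusted p = 0.000566). Fads1, a fatty acid desaturase, had 48 and 41.4 CPM in SLIT2 and 198 and 210 CPM in control (-2.19 ± 0.24, edgeR adjusted p = 0.0002317).

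Circadian clock genes moved in both directions. In this oscillator BMAL1 (the product of Arntl) and CLOCK bind the E-box CACGTG and drive the Per and Cry repressors, and many outputs follow the same rhythm. Of 20 tested, 8 rose (Per1, Per2, Per3, Ciart, Bhlhe41, Tef, Usp2 and Rora), 3 fell (Arntl, Clock and Cry1) and 9 did not pass, where 27.3% of all genes rose and 27.6% fell. On the alternative scale 14 were higher and 1, Arntl, was lower, against 56.7% and 8.45% of all genes. Per2 had 31.9 and 37.1 CPM in SLIT2 and 3.75 and 11.6 CPM in control (2.17 ± 0.49, edgeR adjusted p = 0.006767). Usp2 had 87.8 and 61.4 CPM in SLIT2 and 4.23 and 14.4 CPM in control (3.00 ± 0.63, edgeR adjusted p = 0.004759). Arntl had 0.31 and 0.235 CPM in SLIT2 and 6.27 and 2.05 CPM in control (-3.91 ± 0.87, edgeR adjusted p = 0.006101).

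The control libraries differed between themselves in several of these genes. Dbp, an output gene of the clock, had 133 and 192 CPM in SLIT2 and 4.03 and 71.4 CPM in control and did not pass (2.11 ± 1.00, edgeR adjusted p = 0.1062). Per3 had 56.1 and 89.5 CPM in SLIT2 and 2.43 and 14.7 CPM in control, and it passed (3.09 ± 0.90, edgeR adjusted p = 0.02005). The labels give no hour of the day for these livers, and the part of sampling time in these values was not tested. Clock fell by 2.16 ± 0.37 on the TMM scale but was not called on the alternative scale (-0.81). Without SLIT2 2 or without control 1 there were 4 rises in the list, and the Arntl call was lost without SLIT2 1 (0.05001) or SLIT2 2 (0.05724).

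The letters CACGTG were present, on either strand, in 5 of the 17 promoters that the RefSeq table holds for the clock list (29.4%). These were 4 of 7 genes that rose (Per1, Tef, Ciart and Bhlhe41) and 1 of 3 that fell (Cry1), a division made after the values were seen. They were present for 1309 of 12148 tested genes (10.8%) and 2187 of 27025 genes in all (8.09%). Ciart encodes a repressor of the clock, and its promoter is shown because it held 3 matches, in capitals, within chr3:95882179-95882478 on the minus strand (GRCm38.p6). Ciart had 23.3 and 36.1 CPM in SLIT2 and 0.87 and 3.6 CPM in control (3.73 ± 0.85, edgeR adjusted p = 0.006926), and it is named for this promoter after its values were seen.
Ciart: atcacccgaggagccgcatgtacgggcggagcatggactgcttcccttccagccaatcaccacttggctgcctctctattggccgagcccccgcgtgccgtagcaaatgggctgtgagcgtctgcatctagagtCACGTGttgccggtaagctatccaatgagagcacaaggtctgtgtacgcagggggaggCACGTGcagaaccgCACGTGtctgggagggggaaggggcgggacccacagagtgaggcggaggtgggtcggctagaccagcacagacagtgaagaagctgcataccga

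**Figure D4:**
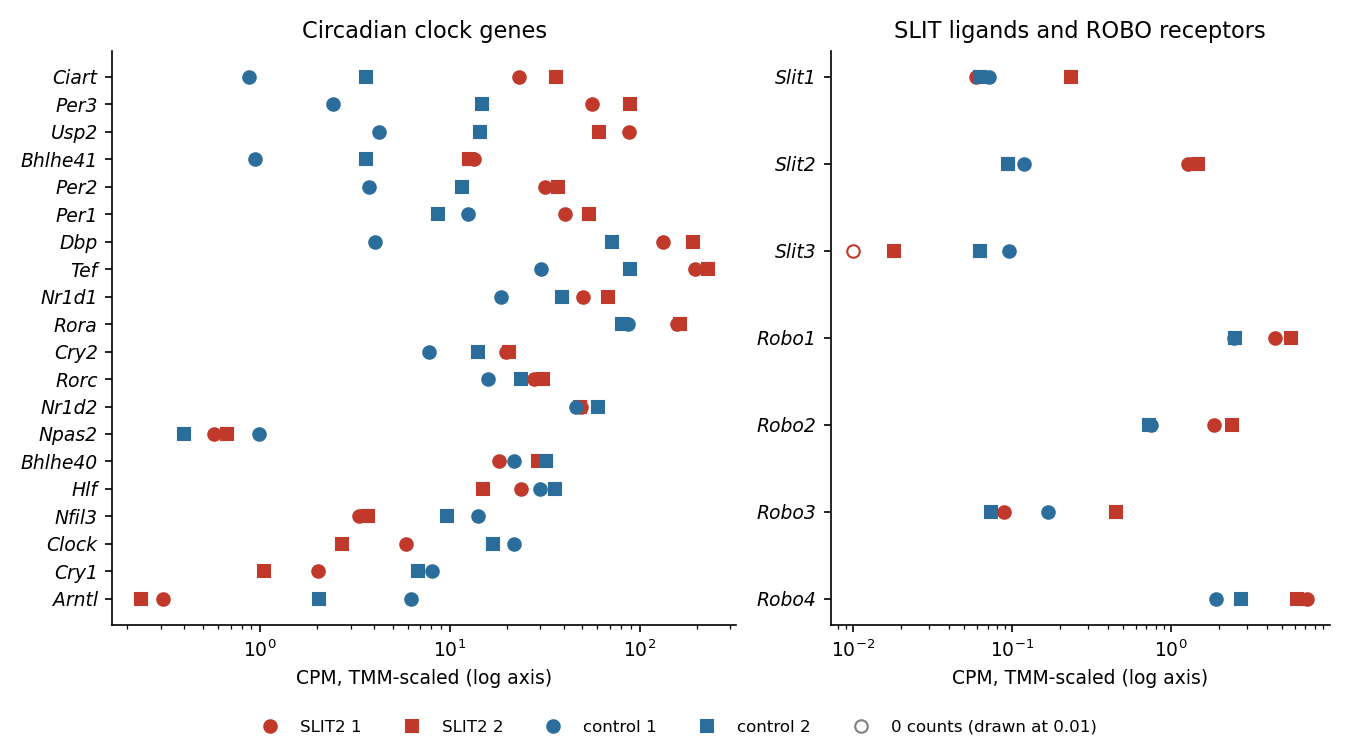
CPM on a log axis for each clock gene (left, in order of fold change) and each SLIT and ROBO gene (right), with red symbols for SLIT2, blue for control, circles for replicate 1 and squares for replicate 2. An open symbol stands for 0 counts and is drawn at 0.01. Dbp lies at 4.03 in control 1 and 71.4 in control 2, and Slit2 lies at 1.28 and 1.47 in SLIT2 against 0.119 and 0.0946 in control.

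Splicing factor genes were mixed, and more antisense genes and processed pseudogenes rose than fell. Of 26 splicing factor genes, 10 rose, 4 fell and 12 did not pass (median 0.51), where 27.3% of all genes rose and 27.6% fell. On the alternative scale 20 were higher and 0 lower, against 56.7% and 8.45% of all genes. Pnisr, which encodes a nuclear-speckle protein, had 201 and 273 CPM in SLIT2 and 36.5 and 39.7 CPM in control (2.64 ± 0.24, edgeR adjusted p = 0.0001411). Srsf11, a serine- and arginine-rich splicing regulator, had 412 and 521 CPM in SLIT2 and 64.6 and 61.7 CPM in control (2.88 ± 0.39, edgeR adjusted p = 0.0005761). Of 3 tested RNAs of the nuclear noncoding list, Snhg11 and Airn rose and Gas5 did not pass (-0.36). Snhg11, a host gene of small nucleolar RNAs, had 59.4 and 68.9 CPM in SLIT2 and 6.28 and 6.95 CPM in control (3.28 ± 0.22, edgeR adjusted p = 9.832e-05). Of 1027 antisense genes listed, 517 passed the filter on low counts, and 271 of them were called higher and 34 lower (432 and 14 of 578 on the alternative scale). Of 2188 processed pseudogenes 534 passed, with 249 higher and 70 lower (373 and 34 of 624 on the alternative scale). A gene can pass that filter through the group where it is high, so these counts are a description. Antisense genes took 0.523% and 0.583% of counts outside the 13 genes in SLIT2 and 0.068% and 0.077% in control. The kit marks strand, but the strand setting of the counting is not given in the sources used here.

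The direction of change differed between short and long transcripts. Across 14885 tested protein-coding genes outside the mitochondrial genome that have a known length, cut into 5 bins of nearly equal size, the median log2 fold change was -1.10 in the bin of shortest transcripts (up to 1940 bases) and 0.50 in the bin of longest (5200 bases or more). In the shortest bin 12.8% were higher and 49.4% lower, and in the longest 36.2% were higher and 15.1% lower. By GC content the medians ran from -0.23 to 0.04. By mean CPM over the 8 libraries, the least abundant bin had 34.4% higher and 7.85% lower (median 1.05). The most abundant bin had 13.7% higher and 55.4% lower (median -1.01). The median longest transcript of the nuclear complex I genes was 1025.5 bases, inside the range of the shortest bin. The part of length, of abundance or of RNA quality in these results was not tested.

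Markers of liver cell types were described by their counts and by their summed levels. Over all genes 27.3% were called higher and 27.6% lower on the TMM scale, and 56.7% and 8.45% on the alternative scale. Of 10 hepatocyte markers 8 fell (5 lower and 2 higher on the alternative scale), and their sum was 18300 and 10400 CPM in SLIT2 and 58200 and 79400 CPM in control. Of 15 Kupffer cell markers 10 fell and 0 rose (sum 102 and 95.2 CPM in SLIT2, 238 and 277 CPM in control), but 5 were higher and 4 lower on the alternative scale. C1qa, a complement component made by these resident macrophages, had 3.08 and 2.32 CPM in SLIT2 and 23.4 and 31.1 CPM in control (-3.33 ± 0.39, edgeR adjusted p = 0.0003329). Cd5l fell by 1.95 ± 0.22 on the TMM scale and was not called on the alternative scale (-0.59). Of 20 endothelial markers 3 rose and 4 fell (sum 166 and 135 CPM in SLIT2, 145 and 159 CPM in control), and of 19 stellate and matrix markers 0 rose and 7 fell (sum 193 and 156 CPM in SLIT2, 317 and 272 CPM in control). On the alternative scale 10 endothelial markers were higher and 0 lower, and 6 stellate and matrix markers were higher and 1 lower. Both shares of rises were below that of all genes there. The medians were 0.89 and 0.67, against 1.42 over all genes. Leaving out 1 library left 0 to 2 rises and 2 to 5 falls among endothelial markers and 3 to 5 falls among stellate markers.

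Blood cell markers were at low levels. Their calls stand beside 27.3% higher and 27.6% lower over all genes, and 56.7% and 8.45% on the alternative scale. Of 19 T, B and NK cell markers 7 rose and 0 fell (13 of 20 higher and 0 lower on the alternative scale). Their sum was 19.6 and 21.5 CPM in SLIT2 and 7.5 and 8.37 CPM in control. Cd3d, a chain of the T cell receptor complex, had 6.75 and 4.11 CPM in SLIT2 and 0.763 and 0.578 CPM in control (3.02 ± 0.57, edgeR adjusted p = 0.002797). The 7 rises became 2 without control 1 and 3 without SLIT2 2 or control 2. Of 10 neutrophil markers tested 3 rose, Cxcr2, Csf3r and Mpo, a share near that of all genes, and 0 fell. On the alternative scale 4 of 9 were higher, a share below that of all genes, and 0 lower. Cxcr2, a chemokine receptor, had 26.8 and 26.3 CPM in SLIT2 and 1.62 and 1.66 CPM in control (4.01 ± 0.26, edgeR adjusted p = 9.832e-05). The markers Camp, Ngp, Ly6g, Ltf and Elane, which define neutrophil granules and surface, had 0 counts in both SLIT2 libraries. In control 1 and control 2 they had 2 and 0 counts for Camp, 3 and 0 for Ngp, 0 and 0 for Ly6g, 1 and 0 for Ltf and 3 and 3 for Elane, so they were near 0 in both groups. Ngp and Elane did not pass the test, and the other 3 were below the filter. Of 8 erythroid genes 7 fell (3 lower and 1 higher on the alternative scale), with Hbb-bs, an adult beta globin, at 3.97 and 5.23 CPM in SLIT2 and 90.6 and 85.8 CPM in control (-4.26 ± 0.69, edgeR adjusted p = 0.001384).

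The largest falls were led by skeletal muscle genes. By the rule used, 8 of the 10 are contractile, energy or fatty acid binding genes of muscle. Fabp3, the fatty acid binding protein of heart and muscle, had 0 counts in both SLIT2 libraries and 39.7 and 5.09 CPM in control, at least 875-fold lower against a floor of 3 counts over the SLIT2 group. Ckm, muscle creatine kinase, had 0.0147 and 0.0181 CPM in SLIT2 (2 counts in all) and 180 and 18.7 CPM in control, a ratio of control over SLIT2 of 5790 (95% counting interval 1600 to 47800). Acta1, skeletal alpha-actin, had 0.0885 and 0.0362 CPM in SLIT2 and 212 and 25.7 CPM in control (-10.81 ± 1.41, edgeR adjusted p = 0.0004778). In each of these genes control 1 stood far above control 2.

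Pgam2, Myl2 and Myoz1 also had 0 counts in both SLIT2 libraries and were at least 319-fold, 310-fold and 221-fold lower. Ckmt2 and Tnnt3 fell to between 0 and 0.0905 CPM in SLIT2, against 4.7 to 125 CPM in control. The summed level of the 20 skeletal muscle markers was 50.4 and 59.1 CPM in SLIT2 and 1480 and 174 CPM in control, and 18 of the 20 fell (18 lower and 1 higher on the alternative scale). Without control 1, 16 of 20 fell and 2 rose, with a median of -6.50 in place of -8.72. Muscle is not liver, and the part of muscle tissue in the control samples was not tested. The Myoz1 call was lost when only the 4 libraries were fitted (edgeR adjusted p = 0.05024). The other falls of the 10 were Cebpzos, at least 223-fold lower, and Ugt1a10, at least 300-fold lower, with 8.5 and 6.26 CPM in control. Ugt1a10 shares its last exons with the other Ugt1a genes on chromosome 1, and Cebpzos overlaps Cebpz on the opposite strand, so the counts of both are uncertain.

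The largest rises were genes with almost no signal in control. Galnt17, a glycosyltransferase gene on chromosome 5, had 27.9 and 75 CPM in SLIT2 and 0.405 and 0.505 CPM in control (6.81 ± 0.67, edgeR adjusted p = 0.0001702). Ffar2, a receptor for short-chain fatty acids, had 12.7 and 18.3 CPM in SLIT2 and 0.226 and 0.158 CPM in control (6.33 ± 0.39, edgeR adjusted p = 9.832e-05). Shank1, a scaffold protein of synapses, had 45.7 and 34.8 CPM in SLIT2 and 0.369 and 0.694 CPM in control (6.23 ± 0.58, edgeR adjusted p = 0.0001459). Slc1a3, a glutamate transporter, had 17.1 and 21.9 CPM in SLIT2 and 0.25 and 0.305 CPM in control (6.12 ± 0.37, edgeR adjusted p = 9.832e-05). These genes are better known from brain, gut or immune cells than from hepatocytes.

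The same group holds Esp6, an exocrine peptide of glands, Duxf3, a double homeobox gene of early embryos, and Piwil4, of the germline Piwi family, at log2 fold changes of 6.87, 6.80 and 6.17. Chrna4, a nicotinic acetylcholine receptor subunit, had 2.3 and 41.2 CPM in SLIT2 and 0.0477 and 0.273 CPM in control (7.03 ± 1.67, edgeR adjusted p = 0.008341). Its rise rests on SLIT2 2, since it was 3.82 without that library (edgeR adjusted p = 0.0535), and it was also lost without control 1 (0.06023). The remaining 2 are antisense genes. Sardhos, opposite Sardh on chromosome 2, had 20.5 and 13.1 CPM in SLIT2 and 0.155 and 0.137 CPM in control (6.84 ± 0.73, edgeR adjusted p = 0.0002213). Sardh itself, sarcosine dehydrogenase, had 171 and 122 CPM in SLIT2 and 256 and 322 CPM in control (-0.98 ± 0.27, edgeR adjusted p = 0.01563), and without a known strand setting the reads of the overlap cannot be told apart. Dhrs13os had 8.05 and 2.43 CPM in SLIT2 and 0 and 0.158 CPM in control and overlaps Dhrs13 and Phf12.

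**Figure D5:**
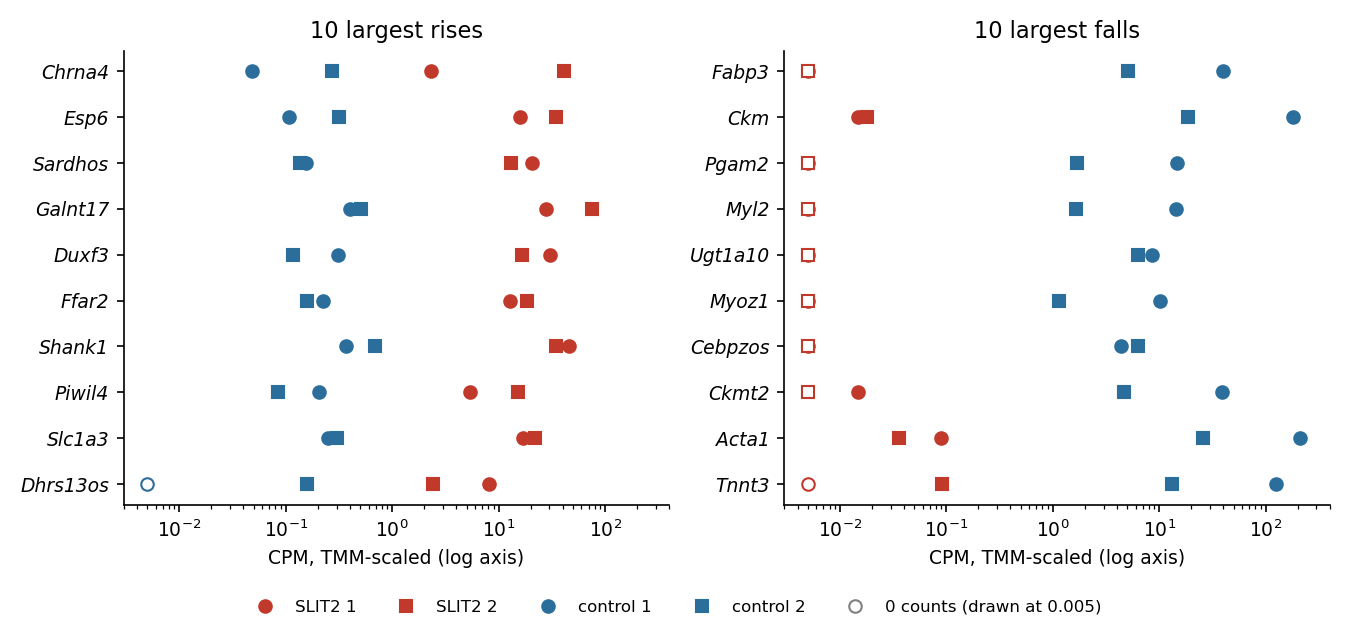
CPM on a log axis in each library for the 10 largest rises (left) and 10 largest falls (right) among called genes, with red symbols for SLIT2 and blue for control, circles for replicate 1 and squares for replicate 2. Open symbols stand for 0 counts and are drawn at 0.005. In the muscle genes control 1 lies well above control 2, as in Ckm with 180 and 18.7 CPM.

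Some genes were all or nothing between the groups. With 0 counts in both libraries of a group and at least 20 CPM in both of the other, 5 genes qualified, and each is a copy of another gene or overlaps it. Rpl10a-ps1, a processed pseudogene on chromosome 1, had 0 and 0 CPM in SLIT2 and 79.2 and 74.9 CPM in control. Its parent Rpl10a, a ribosomal protein gene on chromosome 17, had 137 and 135 CPM in SLIT2 and 146 and 139 CPM in control and did not pass (-0.07 ± 0.27, edgeR adjusted p = 0.8352). The copy is identical to the Rpl10a transcript over all its 654 bases.

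Gm6341 on chromosome 7, a copy of the ribosomal protein gene Rpl27, had 0 and 0 CPM in SLIT2 and 69.8 and 48.6 CPM in control, and differs from Rpl27 at 6 of 411 bases. Gm15387 on chromosome 15, a copy of the chromatin protein gene Hmgb1, went the other way, with 22.5 and 21.9 CPM in SLIT2 and 0 and 0 CPM in control, and differs from Hmgb1 at 1 of 648 bases. Gm10053, with 0 and 0 CPM in SLIT2 and 74.8 and 72.3 CPM in control, differs from the cytochrome c gene Cycs at 1 of 946 bases, and Gm20390, with 0 and 0 CPM in SLIT2 and 21.4 and 20.6 CPM in control, overlaps Nme2 on chromosome 11. Reads of such copies cannot be placed with certainty, and how the authors placed reads that match several sites is not given in the sources used here. The first 60 bases from the coding start are shown for 3 of the pairs, from GENCODE M21 transcripts on GRCm38, with capitals where copy and parent differ.
Rpl10a-ps1: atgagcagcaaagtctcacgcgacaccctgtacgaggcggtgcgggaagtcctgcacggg
Rpl10a: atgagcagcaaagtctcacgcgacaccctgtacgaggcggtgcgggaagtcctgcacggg
Gm6341: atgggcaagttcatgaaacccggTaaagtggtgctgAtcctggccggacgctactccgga
Rpl27: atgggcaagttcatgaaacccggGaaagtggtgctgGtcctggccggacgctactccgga
Gm15387: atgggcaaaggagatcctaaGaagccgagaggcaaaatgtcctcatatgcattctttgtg
Hmgb1: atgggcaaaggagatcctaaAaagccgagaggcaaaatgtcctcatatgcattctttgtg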

How the data were processed

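Gene counts of mouse liver RNA-seq were used as deposited: whole-number counts, not scaled, for 23006 Ensembl identifiers, of which 22341 (97.1%) matched GENCODE M21 on GRCm38. Libraries were made from total RNA with the MGIEasy RNA Directional Library Prep Kit, per the labels' protocols. STAR 2.5.4, Cufflinks, Cuffdiff 2.2.1 and mm10 are named in the submitters' processing notes. The counting step, its strand setting and its handling of reads with several matches were not given in the sources used here. Among the deposited counts, 93 reach 1000000 and 72 of those have a last digit of 0. All columns were used.

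Tests used R 4.3.3 and edgeR 4.0.16 on genes kept by filterByExpr, with TMM scaling, a robust quasi-likelihood fit (legacy = FALSE) of 1 mean per group to all 8 libraries (4 residual degrees of freedom), and Benjamini-Hochberg adjusted p under 0.05. A value after ± is the standard error of a log2 fold change or, where marked SD, a standard deviation. Library sizes set to totals outside the 13 mitochondrially encoded genes gave the alternative scale. The gene lists, rules and comparisons were chosen with earlier results of these data known. Named list members are up to 4 with the smallest p and at least 1 CPM, and the largest changes are the 10 rises and 10 falls whose higher mean was at least 5 CPM, with groups that do not overlap, a call also without the 13 mitochondrial genes, and a symbol other than a clone or pseudogene name. Outside this rule, Ppargc1a, Slc7a11, Mup8, Sardh, Lars2, the near-identical copies and clock genes other than Per2, Usp2, Arntl and Clock were chosen after their values were seen. Floors are 3 counts over a group. Replicates of a group differed by far more than counting noise. The fit was tested on simulated data. DESeq2 1.42.0 was used for an alternative, and matplotlib 3.10.9 drew the figures.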

Additional observations from a re-analysis of the deposited data

How the results depend on the processing

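Of 9266 genes called, 8446 were called in the same direction with a replicate block over the shared numbers, which gave 8495 calls. Those numbers do not pair the samples (deviations of same-numbered SLIT2 and control libraries correlated at 0.07). DESeq2 gave 9246 calls, 8804 of them shared, and the fit of only the 4 libraries gave 10570, 9108 of them shared. No gene called on the main scale was called in the opposite direction except with totals outside the 13 mitochondrial genes (164 genes). Those totals gave 9938 higher and 1481 lower. Requiring at least 10 CPM in 2 libraries gave 4645 calls (2244 higher, 2401 lower) among 7393 genes, and a fold of at least 2 gave 5490 (2882 higher, 2608 lower). Leaving out each library gave 6272 to 11672 calls, 2827 to 5857 higher and 3361 to 5815 lower. A lone library was there assumed to vary like the other groups. The lowest number of rises, 2827, was without control 1. The mitochondrial share of SLIT2 minus control was 48 points, and 43.6 to 52.4 with 1 library left out.

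With totals outside the 13 genes the median turned positive for genes expressing mitochondrial DNA (0.17), ROBO signalling (1.16), hepatocyte factors (1.01), bile acids (0.81), the unfolded protein response (0.16), endothelial (0.89) and stellate (0.67) markers, and Xbp1 stood at 0.09. Each of these medians lay below the median of 1.42 over all genes on that scale. At 10 CPM or more the hepatocyte factors had 0.17 and endothelial markers 0.21. With 1 library left out, the neutrophil median ran from -0.27 (without SLIT2 1) to 2.44 (without control 2), and Robo3 from -0.38 (without SLIT2 2) to 1.9 (without SLIT2 1). The cause was not tested. Of 2365 values of 115 genes under 21 settings, 2327 kept direction and call, 30 lost the call, 6 gained it and 2 reversed. Depth limits SLIT2 most, with 18.9 and 25.1 M counts outside the 13 genes.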

Other observations

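Chemosensory receptor genes, known mainly from sensory neurons of the nose, were chosen for this count after values had been seen. Of 253 olfactory, vomeronasal and trace-amine receptor genes in the table, 115 and 107 had a count in SLIT2 and 61 and 48 in control. Of all 23006 identifiers, 18710 and 18771 had a count in SLIT2 and 18972 and 19008 in control. Per 1000000 counts outside the 13 mitochondrial genes the receptor genes held 583.54 and 552.31 in SLIT2 and 61.18 and 57.56 in control. On that scale the median log2 fold change over all genes tested was 1.42.

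Of 27 cell-cycle genes 7 were higher and 7 lower, near the background of 27.3% and 27.6%. On the alternative scale 12 were higher and 1 lower, where 56.7% and 8.45% of all genes were. Birc5, which guards chromosome segregation, had 31.3 and 33 CPM in SLIT2 and 3.56 and 3.56 CPM in control (3.17 ± 0.25, edgeR adjusted p = 0.0001027), and Top2a, a topoisomerase of dividing cells, had 16.4 and 14.7 CPM in SLIT2 and 3.05 and 3.92 CPM in control (2.16 ± 0.35, edgeR adjusted p = 0.001328). Pcna, the sliding clamp of DNA replication, had 2.82 and 3.31 CPM in SLIT2 and 16.2 and 17.5 CPM in control (-2.46 ± 0.30, edgeR adjusted p = 0.000405). Of 20 p53 targets 4 were higher and 5 lower (10 higher and 2 lower on the alternative scale), near or below the same backgrounds. The p53 target with the largest rise was Tnfrsf10b, a death receptor, which had 12.2 and 13.3 CPM in SLIT2 and 1.38 and 1.18 CPM in control (3.31 ± 0.28, edgeR adjusted p = 0.0001104). Of 10 cholangiocyte markers 3 were higher and 2 lower (5 of 9 higher and 0 lower on the alternative scale), also near or below the backgrounds. The largest rise among them was in Sox4, a transcription factor expressed in many progenitor cells, which had 29.5 and 35.2 CPM in SLIT2 and 2.12 and 2.31 CPM in control (3.87 ± 0.36, edgeR adjusted p = 0.0001474). Of 28 interferon genes 3 rose and 9 fell, and 13 were higher and 2 lower on the alternative scale, again near or below the backgrounds.

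Lars2, the mitochondrial leucyl-tRNA synthetase gene, had 2600 and 7300 CPM in SLIT2 and 1080 and 925 CPM in control (2.30 ± 0.48, edgeR adjusted p = 0.004761). The handling of reads with several matches is not given, and the part of such reads in the Lars2 counts was not tested.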
